A study of Mus musculus with 6 samples.

Results

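The genes described here are the kinesins that carry cargo along axons, measured by RNA sequencing in a mouse neuroblastoma line before and after differentiation. They were chosen by name, as the rows of the count table for Kif5a, Kif5b, Kif5c, Klc1, Klc2, Kif1a, Kif1b, Kif3a, Kif3b and Kif3c, and all 10 were found among 40413 genes. N2A (Neuro-2a) is a mouse neuroblastoma line, and the labels call the N2A-A5 cells used here acceptor cells. The 3 libraries at 0 h came from untreated, undifferentiated cells grown with 10% fetal bovine serum and 10 µg/mL blasticidin. The 3 libraries at 96 h came from cells kept for 96 h with 10 µM retinoic acid and 1% serum, and without blasticidin. Retinoic acid, serum, blasticidin and time in culture differed together between the groups and cannot be told apart. The series' text calls the libraries biological replicates of a single cell line, and in bulk RNA fewer cells that express a gene and less of its RNA per cell cannot be told apart either.

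Kinesins are motor proteins that walk along microtubules, mostly towards the plus end, which in an axon points away from the cell body. Conventional kinesin is a tetramer of KIF5 heavy chains, which hold the motor, and kinesin light chains, which help to bind cargo. KIF1 motors carry synaptic vesicle precursors, dense-core vesicles and mitochondria, and KIF3 motors form heteromers that move membrane cargo in axons and particles inside cilia.

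Over the whole set, 3 kinesin genes rose (Kif3c, Kif5a and Kif3a), 4 fell (Klc1, Kif5b, Kif1b and Kif5c), 2 did not pass the test (Kif3b and Klc2) and Kif1a was close to 0 counts in every library. The 9 tested kinesin genes had a median log2 fold change of 0.11, against 0.03 over all 13705 genes tested. A gene was called at a Benjamini-Hochberg adjusted p below 0.05 in edgeR's quasi-likelihood test, with adjustment over all genes tested. By this rule 28.7% of all genes tested were higher at 96 h, 28.8% were lower and 57.4% were called in either direction, so 7 of 9 kinesin genes were called in a comparison where most genes were. In those 7 genes every 96 h library was above, or every one below, the 0 h libraries, which was also the case for 64.1% of all genes tested. The call count became 4 higher and 3 lower with upper-quartile scaling, where Kif3b was higher and Kif5c did not pass. Under that scaling 4526 of all 13705 genes tested were higher and 3342 lower, against 3927 and 3942 in the main fit.

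The sequences just upstream of the start site are shown for the genes with the largest rise (Kif3c), the largest fall (Klc1), the highest level (Kif5c) and the lowest level (Kif1a). Each is the run of 250 bases before the RefSeq start on build GRCm38.p6, which is older than the build of the counts, read along the gene's strand. They lie at chr12:3364882-3365131 on the plus strand (Kif3c), chr12:111758618-111758867 on the plus strand (Klc1), chr2:49619036-49619285 on the plus strand (Kif5c) and chr1:93101875-93102124 on the minus strand (Kif1a, the one of its windows with the larger number of CpG dinucleotides). Capitals mark matches to AGGTCA (the half-site of retinoic acid receptors), GGGCGG (the GC box), CACGTG (the E-box of MYC and MAX) or CCAAT, searched on both strands.
Kif3c: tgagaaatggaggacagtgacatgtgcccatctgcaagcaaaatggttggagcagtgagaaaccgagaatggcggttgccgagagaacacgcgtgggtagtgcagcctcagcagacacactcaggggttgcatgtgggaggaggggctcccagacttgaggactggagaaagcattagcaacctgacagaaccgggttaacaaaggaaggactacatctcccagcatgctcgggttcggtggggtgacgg
Klc1: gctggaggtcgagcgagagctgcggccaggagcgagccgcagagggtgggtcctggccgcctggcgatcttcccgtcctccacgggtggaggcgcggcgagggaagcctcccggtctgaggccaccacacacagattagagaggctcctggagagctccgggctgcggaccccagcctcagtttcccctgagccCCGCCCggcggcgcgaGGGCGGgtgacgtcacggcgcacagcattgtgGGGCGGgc
Kif5c: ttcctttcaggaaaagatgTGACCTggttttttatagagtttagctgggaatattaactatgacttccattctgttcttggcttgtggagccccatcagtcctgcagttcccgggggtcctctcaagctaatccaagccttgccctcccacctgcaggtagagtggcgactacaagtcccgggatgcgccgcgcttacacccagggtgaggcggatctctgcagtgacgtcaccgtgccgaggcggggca
Kif1a: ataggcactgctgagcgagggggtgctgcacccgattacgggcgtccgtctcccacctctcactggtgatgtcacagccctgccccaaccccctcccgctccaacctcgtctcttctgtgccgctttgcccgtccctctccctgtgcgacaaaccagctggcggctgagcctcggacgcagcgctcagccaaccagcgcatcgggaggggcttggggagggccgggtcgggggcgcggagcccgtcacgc

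The upstream window of Kif3c and the Kif1a window shown held none of the 4 motifs. The other Kif1a window (chr1:93082481-93082730, minus strand) held 1 CACGTG match. The Klc1 window held 3 GC boxes, and the Kif5c window held a single AGGTCA match, on the minus strand. Across 27025 upstream windows of the same length, 1 per gene, 13.8% held AGGTCA, 32.9% GGGCGG, 6.05% CACGTG and 34.5% CCAAT. GC content was 55.6% for Kif3c, 72.4% for Klc1, 55.2% for Kif5c and 69.2% for Kif1a, against a median of 52% over all windows. The windows held 9, 25, 11 and 22 CpG dinucleotides in the same order, with a median of 6 over all windows. The Kif1a values are those of the window picked for its larger CpG number. Its other window held 1 CpG dinucleotide and had a GC content of 50.8%. A match is a description of letters and not of a bound site.

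The libraries held 16.8 M to 20.9 M estimated counts (M for mega). The predicted gene Gm26917 took 18.7% to 22.7% of counts at 0 h and 28.7% to 31.7% at 96 h. Together with mitochondrially encoded and structural RNA genes it took 29.1% to 33.2% at 0 h and 43.4% to 46.8% at 96 h. With all of these removed before TMM scaling, the median log2 change over all genes tested was 0.03. The kinesin genes were then still 3 higher and 4 lower. Removal of Gm26917 alone was not tested. With scaling by library size alone, the median change over all genes tested moved from 0.03 to -0.22 on the log2 scale, so directions below are relative to TMM scaling unless stated. Levels are given in CPM, the usual depth-scaled count unit, on library sizes scaled by TMM (trimmed mean of M-values). With TMM scaling 28.7% of all genes tested were higher at 96 h and 28.8% lower. Of 8 sympathetic neuroblast markers 7 were tested, and 6 of them were lower at 96 h, while 1 of 7 tested pan-neuronal markers was higher and 3 were lower. Their summed levels ran from 613 to 628 CPM at 0 h and 472 to 483 CPM at 96 h (sympathetic), and from 899 to 930 and 702 to 735 CPM (pan-neuronal). The largest parts of these sums were Hand2 (means of 381 CPM at 0 h and 311 CPM at 96 h) and Tubb3 (383 and 259 CPM). Schwann and glial markers summed to between 0.899 and 1.44 CPM at 0 h and between 1.36 and 2.86 CPM at 96 h. Mesenchymal markers summed to between 3.45 and 4.13 CPM at 0 h and between 9.99 and 11.7 CPM at 96 h, with Pdgfrb and Dcn higher of 3 tested and Lum at 0 in all libraries. The part of these markers in the kinesin results was not tested.

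**Figure D1:**
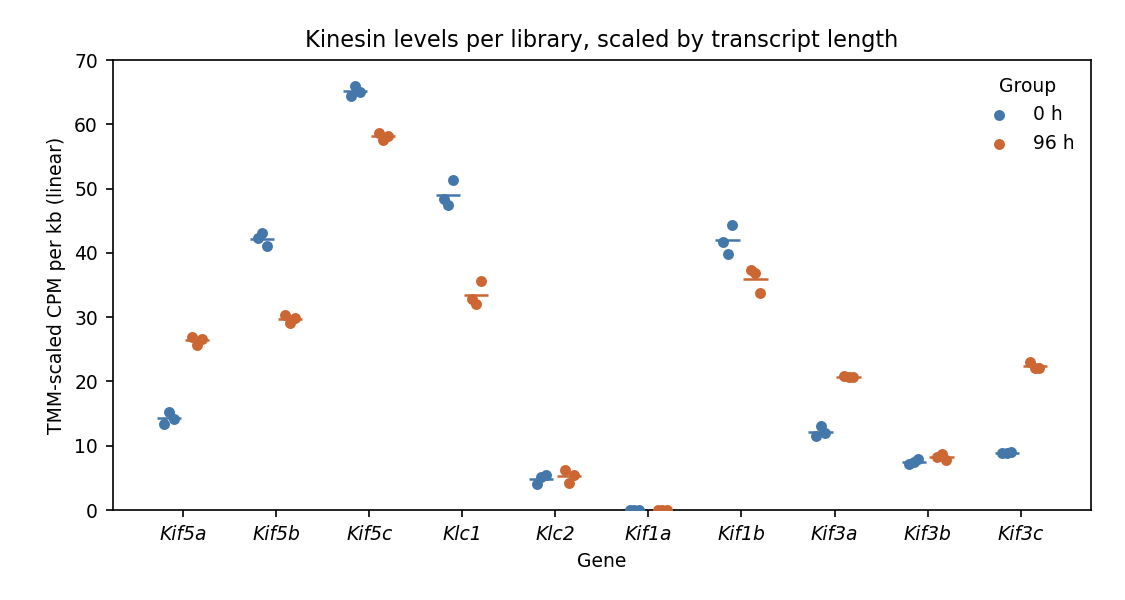
Level of each kinesin gene in each library, as TMM-scaled CPM per kilobase of the longest coding transcript (vertical axis, linear). Points are libraries (blue 0 h, orange 96 h, 3 each) and short lines are group means. Kif5c was highest in both groups and Kif1a lay at the bottom of the axis.

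To compare genes with each other, levels were divided by the length of the longest coding transcript. Kif5c had the highest level in both groups, at 65.1 ± 0.72 CPM per kb at 0 h and 58.1 ± 0.59 CPM per kb at 96 h (mean ± SD over n = 3 libraries, a convention kept throughout). At 0 h it was followed by Klc1 (49.0 CPM per kb), Kif5b (42.1), Kif1b (41.9), Kif5a (14.3), Kif3a (12.2), Kif3c (8.93), Kif3b (7.53), Klc2 (4.87) and Kif1a (0.00346). Of these neighbours, Kif5b and Kif1b overlapped in their libraries and the other neighbouring pairs did not. At 96 h the order was Kif5c, Kif1b (36.0 CPM per kb), Klc1 (33.5), Kif5b (29.8), Kif5a (26.4), Kif3c (22.4), Kif3a (20.7), Kif3b (8.20), Klc2 (5.28) and Kif1a (0.0376), with overlap between Kif1b and Klc1 only. The order rests on these lengths. With the median length of each gene's coding transcripts, an alternative for this order chosen after seeing the data, Klc1 (54.1 CPM per kb) stood below Kif1b (66.1) and Kif5b (63.2) at 0 h, and at 96 h Klc1 (37.0) stood below Kif5b (44.7) and Kif5a (32.3) below Kif3c (36.7). With either length Kif3c stood below Kif3a at 0 h and above it at 96 h. The summed level of all 10 genes was 242 to 250 CPM per kb at 0 h and 237 to 244 at 96 h. The groups thus overlapped in the total but not in 7 of the 9 tested genes. Over all genes tested, 64.1% did not overlap. The total rests on TMM factors of 1.05 to 1.12 at 0 h and 0.893 to 0.956 at 96 h. It was not computed with library size alone.

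Among the KIF5 heavy chains, Kif5a, the isoform most restricted to neurons, rose. Its level was 84.3, 96.2 and 89.0 CPM in the 0 h libraries and 169, 162 and 168 CPM in the 96 h libraries. Every 96 h library lay far above every 0 h library, and the log2 fold change was 0.89 ± 0.06 (SE, edgeR adjusted p = 1.33e-08). It was 0.63 with library size alone and still passed.

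Kif5b, the heavy chain present in most cell types, fell. It stood at 255, 260 and 247 CPM at 0 h and at 183, 176 and 180 CPM at 96 h. The groups were clearly apart, with a log2 fold change of -0.50 ± 0.04 (SE, edgeR adjusted p = 3.40e-07), a level 1.42-fold higher at 0 h. Kif5c, another neuron-enriched heavy chain, was at 442, 452 and 446 CPM at 0 h and at 402, 394 and 399 CPM at 96 h. Its groups did not overlap either, but the difference was small, with a log2 fold change of -0.16 ± 0.04 (SE, edgeR adjusted p = 0.00256). The call of Kif5c was lost with upper-quartile factors (-0.08, edgeR adjusted p = 0.0867) and with a stricter filter on low counts (-0.08, edgeR adjusted p = 0.0636).

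The share of each gene within its family does not depend on how libraries are scaled. Kif5a made up 11.2%, 12.3% and 11.8% of the length-scaled KIF5 level at 0 h, and 23.2%, 22.9% and 23.2% at 96 h. Its share was thus 11.7% ± 0.57 before and 23.1% ± 0.20 after differentiation. The share of Kif5b went from 34.7% ± 0.54 to 26.0% ± 0.11, and that of Kif5c from 53.6% ± 0.55 to 50.9% ± 0.30. The difference for Kif5c was -2.73 percentage points, and -1.61 with median transcript lengths. All 96 h libraries stood apart from all 0 h libraries in each of the 3 shares (exact two-sided permutation p = 0.1, the smallest that 3 against 3 allows, and 0.122 after adjustment over the 11 family quantities compared). The summed KIF5 level was 122 ± 2.4 CPM per kb at 0 h and 114 ± 1.8 CPM per kb at 96 h. The ratio of these sums was 0.941, and the libraries did not overlap (120 to 124 at 0 h, 112 to 116 at 96 h). Unlike the shares, these sums rest on TMM scaling. With library size alone the log2 fold changes were -0.42 for Kif5c, -0.75 for Kif5b and 0.63 for Kif5a, and the sum was not computed. A larger part of the KIF5 pool was Kif5a at 96 h.

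**Figure D2:**
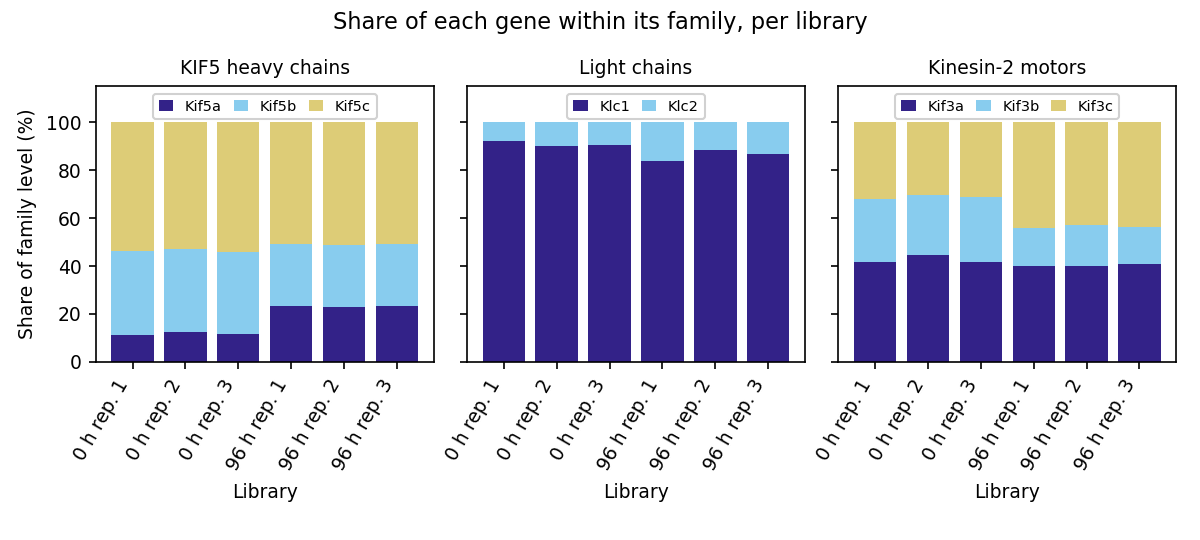
Share of each gene in the length-scaled level of its family (vertical axis, percent), with 1 bar per library, for the KIF5 heavy chains, the light chains Klc1 and Klc2, and the KIF3 motors. Kif5a took between 11.2% and 12.3% at 0 h and between 22.9% and 23.2% at 96 h, and Kif3c between 30.3% and 32.2% and between 43.0% and 44.2%.

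Of the light chains, Klc1, which is abundant in neurons, showed the largest fall of the set. Its level was 121, 119 and 128 CPM at 0 h and 82.2, 80.4 and 89.0 CPM at 96 h. All 96 h libraries lay below all 0 h libraries, with a log2 fold change of -0.55 ± 0.06 (SE, edgeR adjusted p = 1.68e-06), a level 1.46-fold higher at 0 h. Klc2, the more broadly expressed light chain, had 12.8, 16.3 and 17.2 CPM at 0 h and 19.8, 13.1 and 17.3 CPM at 96 h. These groups overlapped, and the log2 fold change of 0.11 ± 0.15 did not pass (SE, edgeR adjusted p = 0.528) and was below 0 with library size alone (-0.14). In the annotation, 13% of the stretches of 31 bases in the Klc2 transcript also occur in a transcript of the opposite strand.

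The share of Klc2 in the summed level of Klc1 and Klc2 was 9.01% ± 1.1 at 0 h and 13.6% ± 2.3 at 96 h. Its libraries ran from 7.70% to 9.77% at 0 h and from 11.4% to 16.0% at 96 h, without overlap (exact permutation p = 0.1). The ratio of summed Klc1 and Klc2 to the summed heavy chains was 0.437, 0.423 and 0.472 at 0 h and 0.337, 0.323 and 0.357 at 96 h. The ratio was lower in every 96 h library than in any 0 h library (0.444 ± 0.025 against 0.339 ± 0.017, exact permutation p = 0.1). The difference of -0.105 depends on the lengths used. It was -0.0651 with median transcript lengths and -0.0399 with no length scaling. The light chain genes Klc3 and Klc4 were not part of these sums, and both were called higher at 96 h. Klc3 went from 0.620 ± 0.22 to 1.54 ± 0.23 CPM (edgeR adjusted p = 0.0135). Klc4 went from 5.91 ± 0.98 to 8.11 ± 0.46 CPM (edgeR adjusted p = 0.0366, and 0.0749 without the filter on low counts).

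The KIF1 motors were represented almost entirely by Kif1b. KIF1A is the best known carrier of synaptic vesicle precursors in neurons. Kif1a had 0, 2 and 0 counts at 0 h and 8, 1 and 6 counts at 96 h. The groups overlapped, the gene was removed by the filter on low counts, and without that filter it did not pass (edgeR adjusted p = 0.0710). The ratio of depth-scaled counts was 9.28 (15 against 2 counts, exact 95% conditional binomial interval 2.16 to 83.7, which covers counting error only). Kif1a was at most 0.174% of the length-scaled KIF1 level in any library.

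Kif1b, whose splice forms carry mitochondria or synaptic vesicle precursors, was among the most abundant of these kinesins. It had 427, 407 and 454 CPM at 0 h and 381, 377 and 346 CPM at 96 h. The groups did not overlap but lay close together, and the log2 fold change was -0.22 ± 0.05 (SE, edgeR adjusted p = 0.00236). It was -0.14 with upper-quartile factors (edgeR adjusted p = 0.0351) and -0.47 with library size alone, so its size depended on the scaling. Counts per gene do not separate the splice forms of Kif1b.

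**Figure D3:**
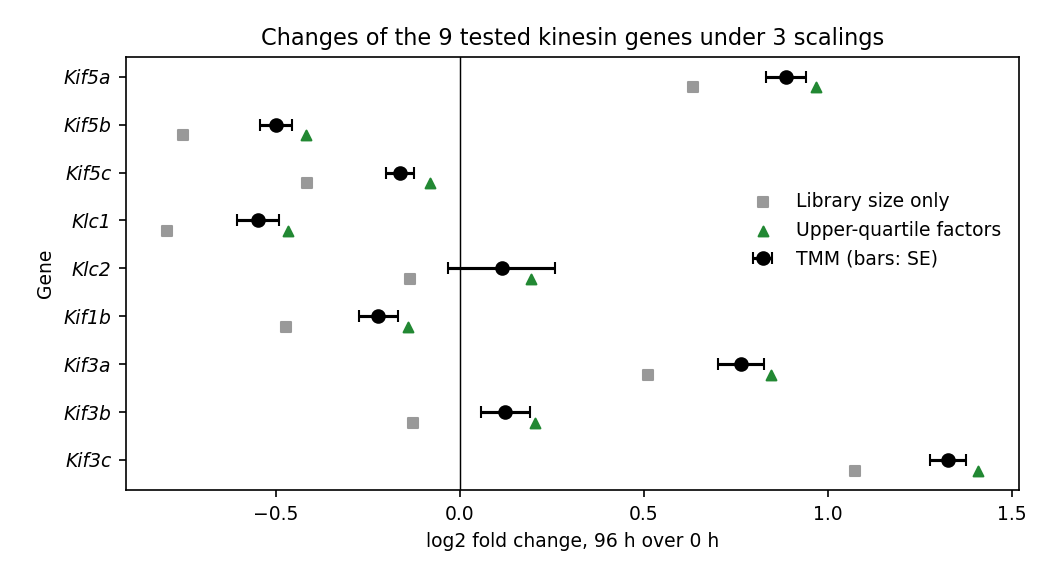
Log2 fold change, 96 h over 0 h (horizontal axis), of the 9 tested kinesin genes. Black points are values with TMM scaling and bars are standard errors, grey squares are values with library size alone and green triangles values with upper-quartile factors. Kif3c, Kif5a and Kif3a lay above 0 and Klc1, Kif5b, Kif1b and Kif5c below 0 under each of the 3 scalings, whereas Kif3b and Klc2 changed sign.

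The KIF3 motors held the largest rise. KIF3A pairs with either KIF3B or KIF3C, and the KIF3C form is enriched in neurons. Kif3c had 60.5, 60.6 and 60.9 CPM in the 0 h libraries and 156, 150 and 150 CPM in the 96 h libraries. The groups were far apart relative to their spread, and the gene rose 2.51-fold (log2 fold change 1.33 ± 0.05, SE, edgeR adjusted p = 1.05e-10). With library size alone the log2 fold change was 1.07. In the annotation, 38.3% of the stretches of 31 bases in the longest Kif3c transcript also lie in the antisense transcript 1110002L01Rik, and whether counting used the strand is not given in the sources used here. That antisense gene had 9.14 to 10.8 CPM at 0 h and 14.9 to 15.9 CPM at 96 h, well below Kif3c. The sum of both genes ran from 70.1 to 71.3 CPM at 0 h and from 165 to 172 CPM at 96 h, a ratio of means of 2.38.

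Kif3a, the partner common to both pairs, also rose. It stood at 36.4, 41.3 and 37.9 CPM at 0 h and at 65.8, 65.4 and 65.4 CPM at 96 h. The groups did not overlap, and the log2 fold change was 0.76 ± 0.06 (SE, edgeR adjusted p = 2.07e-07), a 1.70-fold rise. Kif3b had 40.7, 41.9 and 44.7 CPM at 0 h and 46.0, 48.8 and 43.8 CPM at 96 h. These groups overlapped and the log2 fold change of 0.12 ± 0.07 did not pass (SE, edgeR adjusted p = 0.130). It passed with upper-quartile factors (0.20, edgeR adjusted p = 0.0185) and with a stricter filter (0.20, edgeR adjusted p = 0.0171), and was -0.13 with library size alone.

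In every 96 h library Kif3c took a larger and Kif3b a smaller part of the KIF3 level than in any 0 h library. Kif3c made up 32.2%, 30.3% and 31.1% of the length-scaled level at 0 h and 44.2%, 43.0% and 43.7% at 96 h. The share of Kif3b went from 26.3% ± 1.1 to 16.0% ± 0.75. Kif3a had a share of 42.5% ± 1.7 at 0 h and of 40.4% ± 0.46 at 96 h. That difference of -2.15 percentage points was -1.19 without 0 h replicate 2 and -4.24 with median transcript lengths. The groups were again apart for each of the 3 shares (exact permutation p = 0.1, adjusted 0.122). The summed KIF3 level was 28.7 ± 0.90 CPM per kb at 0 h and 51.4 ± 0.72 CPM per kb at 96 h, a ratio of 1.79. The same ratio was 0.858 for the sum of Kif1a and Kif1b and 0.719 for that of Klc1 and Klc2. These ratios of sums also rest on TMM scaling. Kifap3, the accessory subunit that joins KIF3 motors to cargo, did not follow Kif3a and Kif3c. It went from 43.4 ± 2.0 to 36.3 ± 1.0 CPM, with a log2 fold change of -0.26 ± 0.06 (SE, lower past the test), and it was named for its role after its values were seen.

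The kinesin genes share little sequence with each other at the RNA level. In the longest coding transcripts, no stretch of 31 bases of Kif5a, Kif5c, Klc1 or Kif3b occurred in a transcript of any other gene. Kif1a and Kif1b each had 5 such stretches in common with other genes of the set, and Kif5b had 3. The part shared with any other gene was 5.66% for Kif5b and 1.88% for Kif3a. It was largest for Kif3c (44%) and Klc2 (13%), in both cases mainly with the opposite strand.

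Genes with the most similar profile to the kinesins with the largest changes were found by the Euclidean distance between log2 levels centred over the 6 libraries, among 9414 genes. For Kif3c they were Prune2 (distance 0.0709), the amino acid transporter Slc7a5 (0.0924) and the synaptotagmin Syt4 (0.103). For Klc1 they were the RNA-binding protein Khsrp (0.0404), the complex I subunit Ndufs7 (0.0468) and the small GTPase Gem (0.0603). With 2 groups, such distances mostly reflect the size of the difference between the groups.

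Other genes of microtubule transport moved in both directions. Dynein is the motor that carries cargo back to the cell body, with dynactin as its activator. Of 27 tested dynein, dynactin and dynein-regulator genes, 5 were higher, 11 lower and 11 did not pass (1 higher and 20 lower with library size alone, where 17.6% and 42.7% of all genes tested were). Dync1h1, the dynein heavy chain, rose 1.31-fold, from 652 ± 13 to 855 ± 42 CPM, and Dync1li2, a light intermediate chain, rose 1.26-fold, from 88.1 ± 3.5 to 111 ± 4.3 CPM. The call of Dync1li2 was lost with library size alone (log2 fold change 0.08, edgeR adjusted p = 0.337). Pafah1b1 (LIS1), a regulator of dynein, fell (log2 fold change -0.59 ± 0.06, SE), as did the dynein adaptor Hook3 (-0.52 ± 0.05). The median of this list was -0.09, and with TMM scaling 28.7% of all genes tested were higher and 28.8% lower.

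Of 28 tested kinesin adaptors and regulators, 13 were higher, 6 lower and 9 did not pass, with a median of 0.13. Over all genes tested, 28.7% were higher and 28.8% lower. With library size alone 6 adaptors and regulators were higher and 12 lower, where 17.6% and 42.7% of all genes tested were. Hap1, an adaptor that binds kinesin light chains and dynactin, rose 1.74-fold (108 ± 4.7 to 188 ± 3.8 CPM), and Mapk8ip2, a JNK-interacting scaffold, rose 1.52-fold (50.3 ± 2.6 to 76.3 ± 4.7 CPM). Map7d1, a microtubule-binding activator of conventional kinesin, fell (log2 fold change -0.54 ± 0.05, SE). Trak1, the adaptor between mitochondria and KIF5, fell as well (-0.51 ± 0.06).

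**Figure D4:**
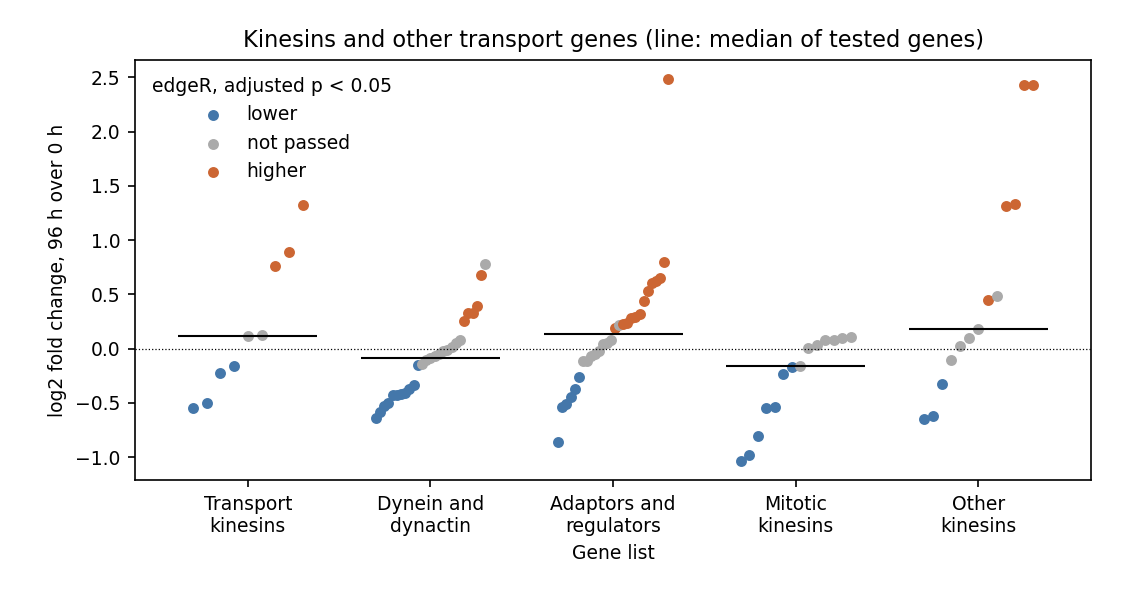
Log2 fold change, 96 h over 0 h (vertical axis), of each tested gene in the axonal kinesin set and 4 related lists (horizontal axis). Orange and blue points are genes higher and lower at an edgeR adjusted p below 0.05, grey points did not pass, and lines are medians, which ran from -0.16 for mitotic kinesins to 0.18 for other kinesins.

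The kinesins of cell division act in the mitotic spindle and at its midzone. Of 14 mitotic kinesins 7 fell, 7 did not pass and 0 rose (edgeR; 0 higher before adjustment of p, 0 in DESeq2 and 0 in limma-voom), with a median of -0.16. With upper-quartile factors 5 were lower, and with library size alone 10. Of all genes tested, 28.8% were lower with TMM scaling and 42.7% with library size alone. With upper-quartile factors 3342 of 13705 genes were lower. Kif23, needed for cytokinesis, had 84.2 ± 4.3 CPM at 0 h and 41.1 ± 0.23 CPM at 96 h, a log2 fold change of -1.03 ± 0.06 (SE). Kif11, which separates spindle poles, had 178 ± 5.8 and 102 ± 4.4 CPM (-0.80 ± 0.05). No test compared these lists with each other.

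Of 21 other kinesin genes 13 were tested, with 5 higher, 3 lower, 5 that did not pass and a median of 0.18. With library size alone 4 were higher and 5 lower. Over all genes tested, 28.7% were higher and 28.8% lower with TMM scaling, and 17.6% and 42.7% with library size alone. Kif21b, a neuronal kinesin that limits microtubule growth, rose 5.38-fold, from 4.66 ± 0.67 to 25.0 ± 1.5 CPM. Kif7, a regulator of Hedgehog signalling in cilia, rose 2.53-fold, from 4.23 ± 0.52 to 10.7 ± 1.5 CPM. Kif26a (log2 fold change -0.64 ± 0.07, SE) and the microtubule depolymerase Kif2a (-0.33 ± 0.05) fell. Without 96 h replicate 3, 3 of these kinesins were higher in place of 5.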

How the data were processed

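RNA of 6 libraries was depleted of ribosomal RNA and sequenced from a stranded total RNA kit as paired ends, per the labels' protocols. The deposited table holds estimated counts per gene symbol (expected counts, not normalised). FastQC 0.12.1, Salmon 1.10.1, DESeq2 1.52.0 and mm39 are named in the submitters' processing notes. Neither the annotation nor the strand setting is given in the sources used here. The members and gene lists were chosen with earlier results of these data known.

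Counts were rounded. In edgeR 4.0.16 (R 4.3.3), 13705 genes passed filterByExpr, TMM factors were applied and groups were compared across all genes with the quasi-likelihood test. The SE is the log2 fold change divided by the square root of F. The fit was also run on simulated counts with known changes, of which it called some and missed others. Family shares used counts per length of the longest coding transcript (GENCODE M21, GRCm38), matched by symbol for all 10 genes, and an exact permutation test. Upstream windows came from RefSeq and were kept for 7 of 10 genes. Any window of these genes on a single chromosome was left out, and the background windows were not filtered in this way. Named genes were all members, the 2 higher and 2 lower genes of each list with the smallest adjusted p, and 3 nearest profiles (mean of at least 5 CPM, pseudocount 0.1) for the largest rise and fall. Replicates of a group differed by more than sampling noise (chi-square per degree of freedom 6.79 to 13.9). Alternatives were other scalings, filters and tests (DESeq2 1.42.0, limma-voom 3.58.1), removal of structural RNA genes, an adjusted p of 0.01, a replicate block, other lengths and leaving out each library.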

Additional observations from a re-analysis of the deposited data

How the results depend on the processing

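The member counts of 3 higher and 4 lower held when any library was left out (3 to 3 higher and 4 to 4 lower). With library size only, dynein and dynactin genes were 1 higher and 20 lower, kinesin adaptors 6 higher and 12 lower, and other kinesins 5 lower. Under that scaling 17.6% of all genes tested were higher and 42.7% lower. Other kinesins numbered 3 higher with the stricter filter (5 CPM in 3 libraries) and at an adjusted p of 0.01, and 3 to 4 higher when 1 library was left out. Kif3b (-0.13) and Klc2 (-0.14) were below 0 with library size only, and Klc2 also without 0 h replicate 1 (-0.010) or 96 h replicate 1 (-0.030), in a range of -0.030 to 0.26 with 1 library left out. No family share or ratio changed direction with other lengths, without length scaling or with 1 library left out. Same-numbered replicates did not deviate together more than others (correlations of -0.0136, 0.0144 and -0.00496, against -0.0139 to 0.018 for other pairs). Replicate 2 matched best with its own number and replicates 1 and 3 did not. With 3 libraries per group, such values cannot show whether same-numbered replicates were handled together. With the replicate block, 3 members were higher and 4 lower, and 3854 genes in all were higher and 3858 lower (3927 and 3942 without it). Kif1a had 17 counts over all libraries, too few for a firm estimate of its change.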
